A study of Caenorhabditis elegans with 165 samples.

Results

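The flp and nlp genes of Caenorhabditis elegans were followed through RNA-seq libraries of 3 strains. The members are all genes in the count files whose symbol is flp or nlp followed by a number, except nlp-24 to nlp-34, which encode peptides of the antimicrobial type. The rule gave 98 genes, 31 flp and 67 nlp, out of 20389 gene identifiers, and it used no measured value. N2 is the standard wild type, 15eh1 carries a fusion of X with chromosome V, and YPT41 a fusion of X with chromosome II. No other allele, and no agent, is named for the RNA libraries, and each strain has 4 of them, called replicates 1 to 4. The titles give larval stages L1 to L3, the design text gives L3 only, and whether replicates came from separate cultures is not stated, so p-values measure the spread between these libraries. The series profiles the dosage compensation complex, which lowers expression from both X chromosomes of hermaphrodites, and the fusions put autosomal genes next to X.

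Neuropeptides are cut from larger precursors, packed into dense core vesicles, and released onto receptors that are mostly coupled to G proteins. The flp genes encode FMRFamide-like peptides, which end in an amidated arginine and phenylalanine, and the nlp genes encode the other neuropeptide-like proteins, grouped by symbol rather than by sequence. Most are made in small sets of neurons, a few in gut or skin, and they act in locomotion, feeding, egg laying, sleep and sensory behaviour.

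Of the 98 genes, 91 passed the filter on low counts, 30 flp and 61 nlp, and the values below are for these unless stated. The other 7 were flp-23, nlp-22, nlp-23, nlp-39, nlp-81, nlp-90 and nlp-119. No read was counted for nlp-90 in any library. The gene nlp-22, which acts in the interneuron RIA to quiet the animal at the moult, had 5 counts in all. Transcripts of nlp-39 were nearly confined to replicate 1: they stood at 1.53 CPM (counts per 1000000, scaled by the TMM method) in N2, 9.92 in 15eh1 and 0.901 in YPT41, against 0 to 0.103 CPM in the other 9 libraries.

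All members together took between 0.160% and 0.558% of the gene counts of a library. Library totals ran from 8237095 to 31234047 gene counts. The limit set by a count of 0, 3 counts, corresponds to 0.0960 to 0.364 per 1000000 gene counts before TMM scaling, unlike the CPM given here. Replicate 1 of every strain held adult and germline transcripts: the 6 vitellogenin genes summed to 67454 to 167587 CPM there and to 2.71 to 427 CPM in replicates 2 to 4, and 10 germline genes summed to 3726 to 20685 against 136 to 224 CPM. The ends of these ranges of replicates 2 to 4 came from other libraries, and YPT41 replicates 3 and 4 lay between them. They had vitellogenin sums of 242 and 12.9 CPM and germline sums of 158 and 200 CPM. Their values for the members stood apart, as given below. All 13 pan-neuronal genes, such as the vesicle proteins rab-3 and snb-1, were detected in each library. In whole animals, fewer cells of a type and less RNA per cell cannot be told apart.

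Members varied together from library to library. Of the 91 tested genes, 70 were lower in replicate 1 than in the mean of replicates 2 to 4 in all 3 strains, a share of 76.9% against 40.3% of all tested genes. The median difference was −0.95 on the log2 scale in N2, −0.95 in 15eh1 and −1.41 in YPT41, while the pan-neuronal genes had medians of −1.13, −1.19 and −0.97. The members that were higher in replicate 1 of every strain numbered 3, flp-10, flp-28 and nlp-45, or 3.30% of members against 35.8% of all genes. At the other extreme, YPT41 replicate 4 was the highest of all 12 libraries for 65 of the 91 genes and YPT41 replicate 3 for 13 more. Over all tested genes these libraries were the highest for 22.5% and 11.8%. These ranks are of TMM-scaled CPM. As a share of unscaled gene counts, the members together took 0.550% in YPT41 replicate 4 and 0.558% in YPT41 replicate 3. N2 replicate 1 was the lowest library for 53 members, and for 24.2% of all genes.

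**Figure D1:**
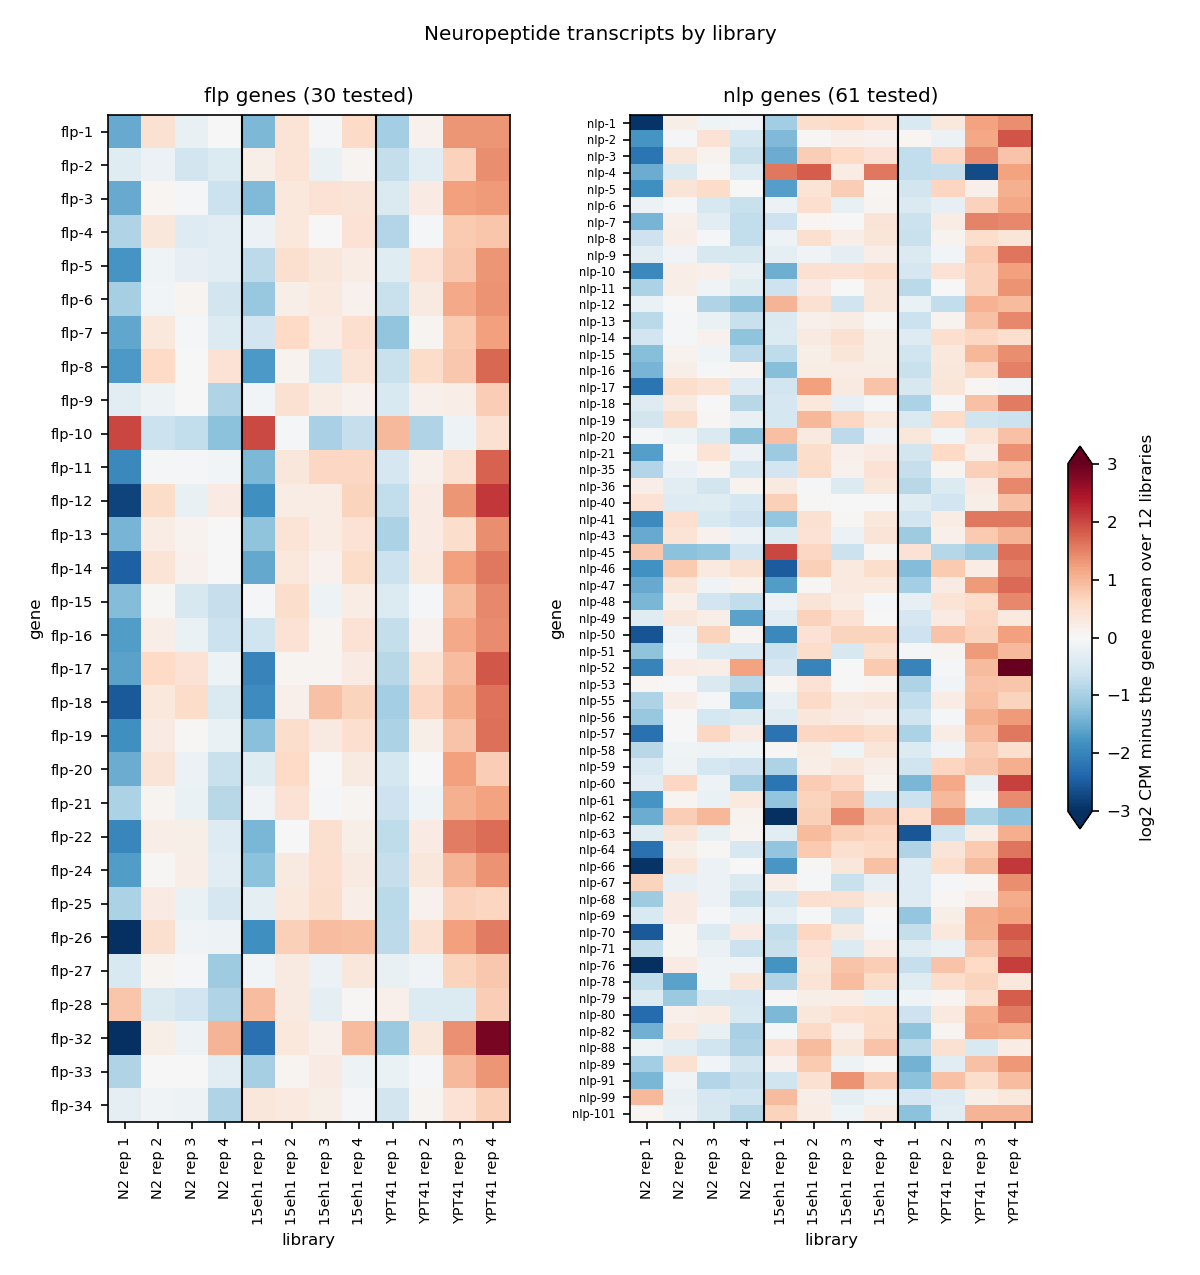
Log2 CPM of each of the 91 tested genes (rows, flp left and nlp right) in the 12 libraries (columns, 4 per strain), shown as the difference from the gene's mean over the libraries; red is higher and blue lower. Most rows are blue in replicate 1 of each strain and red in YPT41 replicates 3 and 4, while flp-10 is red in replicate 1.

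YPT41 was first set against N2. Of the 91 genes, 87 had a log2 fold change above 0, with a median of 0.85, against 52.3% of all 13186 tested genes and a median of 0.03. The flp genes had a median of 0.95 and the nlp genes of 0.83, and 33 members, 36.3%, exceeded 1 on the log2 scale, as did 6.73% of all genes. None of the 91 passed the edgeR quasi-likelihood test with strain as the only term (adjusted p under 0.05, Benjamini-Hochberg over all tested genes), a rule that called 0.22% of all genes. At an unadjusted p under 0.05 the test gave 19 members, all higher in YPT41, against 8.82% of all genes. Replicate numbers were taken to pair the libraries, though among replicates 2 to 4 only 4 of 9 pairs passed the limit set for it. With the replicate number as a block 18 members rose and none fell, against 4.1% of all genes higher and 1.1% lower. DESeq2 called 0 members and 2.87% of all genes.

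These differences lay mostly in YPT41 replicates 3 and 4. Within replicate numbers 1 to 4, the median difference of the members between YPT41 and N2 was 0.44, 0.03, 0.84 and 1.70 in log2 CPM, and 67, 48, 82 and 88 of the 91 genes were higher in YPT41. Higher at all 4 numbers were 32 members, against 16.2% of all genes, and lower at all 4 were 0, against 9.13%. The corresponding medians of the pan-neuronal genes were 0.25, −0.07, 0.21 and 0.09. Both libraries lay above replicates 1 and 2 of YPT41 for 73 members, against 22.9% of all genes. Without them the fit with the block called 0 members and 315 of all genes. The median of the members was then 0.27, with 64 of 92 tested members above 0, and strain only gave 0.06 and 54. Without YPT41 replicate 4 alone the median was 0.39 with strain only and 0.48 with the block, and without N2 replicate 4 it was 0.52 with the block. The number called with the block also depended on single libraries, among members and among all genes. With N2 replicates 1 to 4 left out in turn, 0, 18, 1 and 0 members were called, against 188, 486, 263 and 91 of all genes. With YPT41 replicates 1 to 4 left out in turn, 1, 35, 6 and 1 members were called, against 376, 945, 479 and 355 of all genes.

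**Figure D2:**
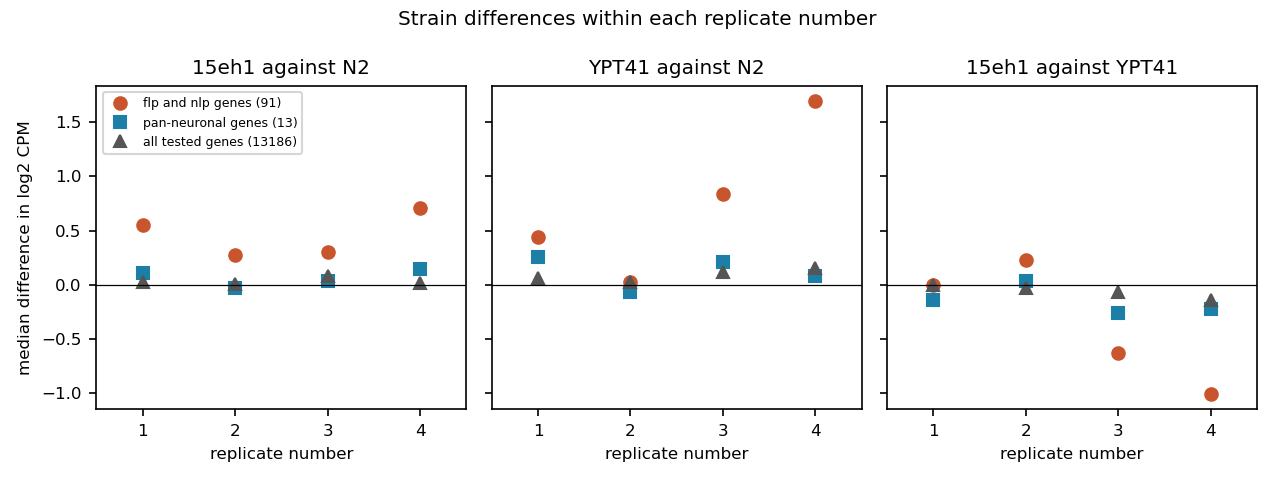
Median difference in log2 CPM between strains within each replicate number (x axis), for the 91 flp and nlp genes (circles), 13 pan-neuronal genes (squares) and all tested genes (triangles), with 1 panel per comparison. The circles reach 0.84 and 1.70 in replicates 3 and 4 of YPT41 against N2 and stay between 0.28 and 0.71 in 15eh1 against N2.

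The gene flp-5, an FMRFamide-like gene on X, had the smallest adjusted p among the 18. Its CPM were 18.1, 57.3, 52.7 and 49.6 in N2 replicates 1 to 4, 36.3, 87.7, 78.6 and 72.9 in 15eh1, and 48.2, 84.8, 110 and 155 in YPT41. YPT41 was above N2 in each of the 4 replicate numbers, and the ranges overlapped because replicate 1 was low in both. With the block flp-5 was 2.27-fold higher in YPT41 (log2 1.18 ± 0.21 SE, edgeR adjusted p = 0.0121), and without it the adjusted p was 0.433. It was called in 6 of the 8 fits with the block that left out 1 library, the most of any of the 18.

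Genes of egg laying and of chemosensory neurons were among those called. The peptides of nlp-3, on X, act with serotonin in the egg-laying motor neurons, and its CPM were 7.73, 45.1, 38.5 and 22.5 in N2 and 21.5, 54.9, 95.2 and 65.0 in YPT41. It was higher in YPT41 at every replicate number, with overlapping groups and a 2.22-fold difference with the block (edgeR adjusted p = 0.0164; 0.704 without). The other egg-laying gene, nlp-7, stood at 4.37 to 12.9 CPM in N2 and at 7.39, 13.6, 33.0 and 32.0 in YPT41, and did not pass (edgeR adjusted p = 0.055 with the block). The gene nlp-1, expressed in the odour-sensing neuron AWC, went from 1.63, 15.1, 12.1 and 12.5 CPM in N2 to 9.65, 16.7, 30.6 and 35.3 in YPT41. Each YPT41 library was above its N2 counterpart, and nlp-1 rose with the block (log2 1.29 ± 0.31 SE, edgeR adjusted p = 0.035; 0.664 without). For nlp-9, also of AWC, CPM of 32.9 to 42.2 in N2 faced 33.6, 43.5, 79.0 and 140 in YPT41 and no call (log2 0.86 ± 0.33 SE with the block, edgeR adjusted p = 0.145).

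Among genes of sleep, 1 of 5 tested members rose with the block. It was flp-24, which with flp-13 and nlp-8 serves the neuron ALA in sleep after stress. Its CPM were 14.5, 47.8, 53.3 and 36.7 in N2 and 28.8, 59.5, 94.5 and 119 in YPT41, higher at each replicate number (log2 0.97 ± 0.21 SE with the block, edgeR adjusted p = 0.0281; 0.657 without). The gene flp-11, the sleep peptide of the neuron RIS, had 9.25, 34.8, 34.2 and 33.8 CPM in N2 and 25, 39.6, 49.4 and 122 in YPT41. Its highest value came from YPT41 replicate 4, and it missed the threshold (log2 1.03 ± 0.27 SE with the block, edgeR adjusted p = 0.0514). Log2 fold changes of flp-13, nlp-8 and the orcokinin-type gene nlp-14, which promotes sleep, were 0.68, 0.39 and 0.70 with strain only, and none was called.

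Of the ligands of NPR-1, 1 was called and 1 was not. NPR-1, a receptor in aggregation and oxygen responses, is bound by peptides of flp-18 and flp-21. The CPM of flp-18 were 6.10, 44.7, 52.3 and 26.3 in N2 and 17.4, 55.3, 74.3 and 110 in YPT41, and it rose with the block (log2 1.07 ± 0.27 SE, edgeR adjusted p = 0.0463; 0.804 without). For flp-21 they were 24.8 to 51.4 in N2 and 31.3, 44.1, 101 and 111 in YPT41, and the test was not passed (log2 0.92 ± 0.34 SE with the block, edgeR adjusted p = 0.141).

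Ligands of EGL-6, a receptor that inhibits egg laying, went separate ways in replicate 1. For flp-17, made in the carbon dioxide-sensing neurons BAG, the YPT41 libraries had 19.9, 47.7, 67.9 and 130 CPM and the N2 libraries 11.6, 54, 48.6 and 32.3 (log2 0.85 ± 0.63 SE, edgeR adjusted p = 0.805). The gene flp-10 was high where most members were low: replicate 1 had 119 CPM in N2, 118 in 15eh1 and 58.1 in YPT41, and the other libraries 12.6 to 41.1. Its log2 fold change was −0.25 ± 0.83 with strain only and 0.33 ± 0.40 with the block, and neither passed.

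The locomotion genes were not called. For flp-1, a gene of the interneuron AVK, the N2 libraries had 31.4, 124, 77.9 and 89.6 CPM and the YPT41 libraries 44.3, 98.9, 225 and 225 (log2 0.80 ± 0.29 SE with the block, edgeR adjusted p = 0.13). The cholecystokinin-like gene nlp-12, of the stretch-sensing neuron DVA, gave 86.0, 100, 52.8 and 42.3 CPM in N2 and 86.2, 59.3, 203 and 192 in YPT41 (log2 0.98 ± 0.49 SE with the block, edgeR adjusted p = 0.256). Both genes were above every N2 library in YPT41 replicates 3 and 4 alone. The fat-regulating gene flp-7 and the touch neuron gene flp-20 had log2 fold changes of 0.76 and 0.85 with strain only, also without a call. Intestinal nlp-40, which times defecation, had 307, 175, 177 and 159 CPM in N2 and 178, 153, 259 and 417 in YPT41, with replicate 1 the highest in N2 and not in YPT41 (log2 0.30 ± 0.35 SE, edgeR adjusted p = 0.87).

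The other members called with the block fall outside the roles above. The largest of these block estimates was that of flp-32, on X, with 0.407, 7.15, 5.68 and 13.1 CPM in N2 and 2.88, 8.02, 16.5 and 46.5 in YPT41 (log2 1.45 ± 0.34 SE, edgeR adjusted p = 0.035; 0.765 without the block). The next was nlp-76, on X, with 0.712, 7.71, 6.04 and 5.97 against 3.97, 11.8, 9.81 and 27.6 CPM (log2 1.44 ± 0.34 SE with the block, edgeR adjusted p = 0.0341). In both genes all 4 replicate numbers had YPT41 higher, and YPT41 replicate 4 was the highest of the 12 libraries. Among the 5 largest strain-only differences were also nlp-52 and nlp-66, not called. For nlp-66 there were 0.305, 3.99, 2.74 and 3.13 CPM in N2 and 2.34, 4.54, 6.02 and 13.9 in YPT41, higher at each number (log2 1.43 ± 0.37 SE with the block, edgeR adjusted p = 0.0517). For nlp-52 there were 0, 0.420, 0.413 and 0.955 CPM in N2 and 0, 0.332, 0.781 and 4.07 in YPT41, so YPT41 replicate 4 alone was above every N2 library (log2 1.44 ± 1.18 SE, edgeR adjusted p = 0.827). The male mating gene flp-12, called with the block, reached 78.3 and 138 CPM in YPT41 replicates 3 and 4, against 4.47 to 45.8 in N2 (2.47-fold with the block, edgeR adjusted p = 0.0446). The orcokinin-type gene nlp-15 had 20.5, 53.6, 45.4 and 29.0 CPM in N2 and 32.6, 62.5, 99.8 and 130 in YPT41 (2.08-fold with the block, edgeR adjusted p = 0.0463). The remaining 9 called genes were flp-3, flp-14, flp-22, flp-26, nlp-10, nlp-41, nlp-51, nlp-64 and nlp-80, with log2 fold changes of 0.92 for nlp-10 to 1.39 for nlp-41 with the block.

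Groups that did not overlap were rare. All 4 YPT41 libraries lay above all 4 N2 libraries for nlp-51 and nlp-79, 2 members against 3.75% of all genes, and no member had all 4 below, against 1.82%. The gene nlp-51, on II, had 7.32, 16.3, 12.9 and 12.3 CPM in N2 and 16.5, 18, 41.0 and 33.2 in YPT41, and was 2.23-fold higher with the block (edgeR adjusted p = 0.0472; 0.376 without). The gene nlp-79 had 1.40 to 2.34 CPM in N2 and 2.88, 3.32, 4.57 and 11.3 in YPT41 (log2 1.44 ± 0.44 SE, edgeR adjusted p = 0.278). Among replicates 2 to 4 only, with strain as the term, nlp-59 was the single member called, a gene named after its values were seen. It had 6.66, 5.11 and 4.74 CPM in N2 and 11.6, 13.2 and 16.0 in YPT41 with no overlap (log2 1.20 ± 0.21 SE, edgeR adjusted p = 0.0325), against 1.01% of all genes called. With the block in the same replicates no member was called, and nlp-59 was not among the 18.

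The members below 0 numbered 4, flp-10, nlp-19, nlp-62 and nlp-99, and none passed. The gene nlp-62 had 0.508, 2.80, 3.36 and 1.76 CPM in N2 and 2.34, 4.26, 0.781 and 0.625 in YPT41. It was higher than N2 in replicates 1 and 2 and lower in 3 and 4, where the median member was higher (log2 −0.07 ± 0.86 SE, edgeR adjusted p = 0.99). For nlp-19 the YPT41 values were 1.89, 3.87, 1.67 and 1.63 CPM, within the N2 range in replicate 1 only (log2 −0.19 ± 0.43 SE, edgeR adjusted p = 0.931). Replicates 3 and 4 of YPT41 both lay below replicate 2 in 4 members, nlp-17, nlp-19, nlp-62 and nlp-88, against 26.0% of all genes.

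**Figure D3:**
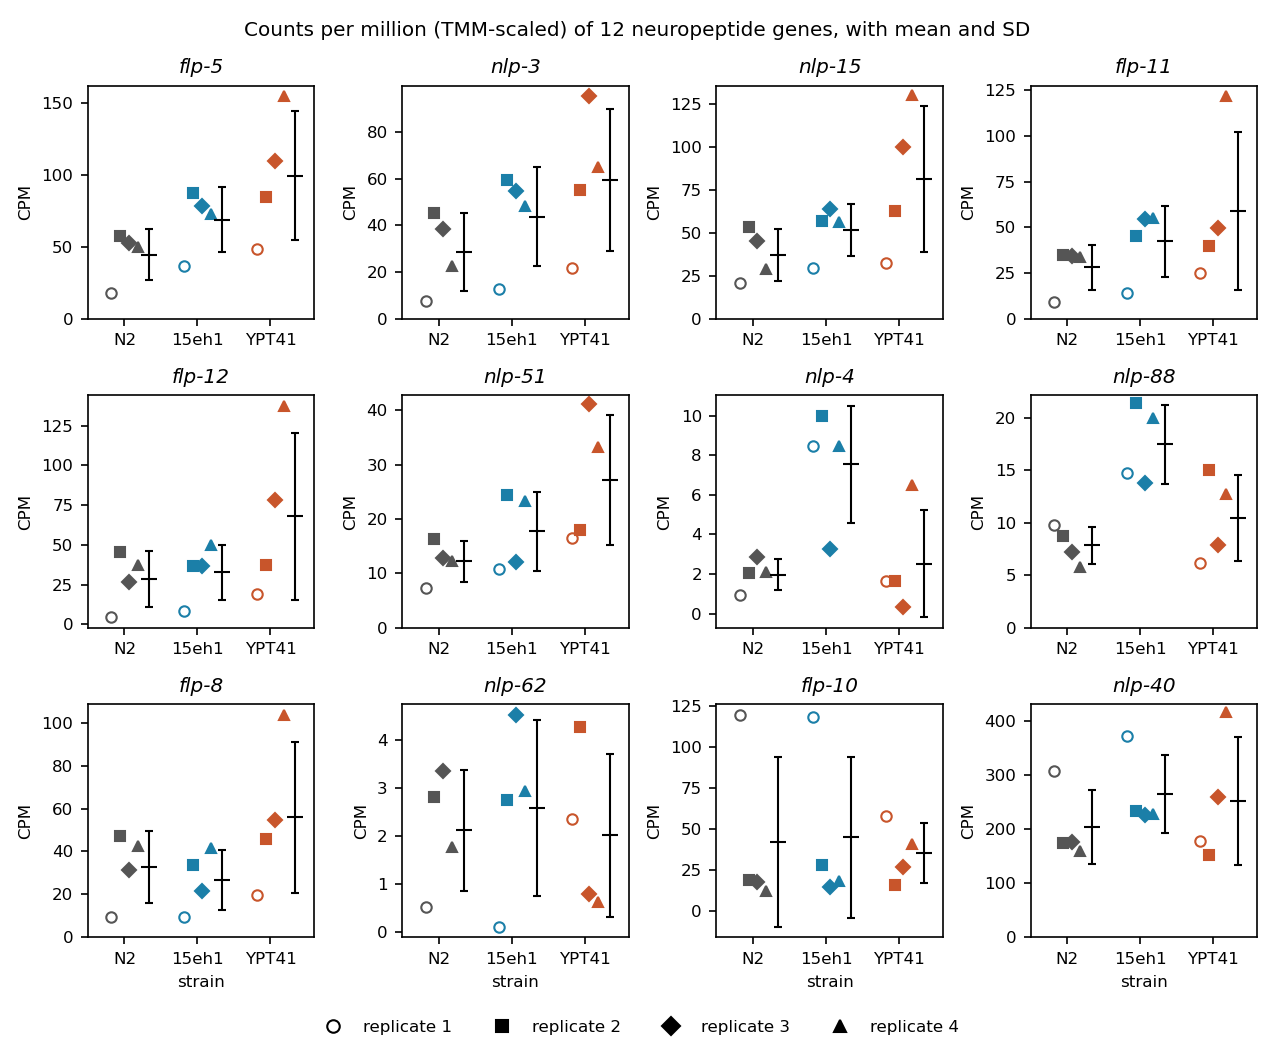
CPM of 12 members in each library by strain, with the replicate marked by symbol and open circles for replicate 1; the bar beside each strain is the mean with its SD over 4 libraries. For flp-5, YPT41 runs from 48.2 to 155 against 18.1 to 57.3 in N2, nlp-4 is highest in 15eh1, and within N2 and within 15eh1 flp-10 and nlp-40 are highest in replicate 1.

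With all libraries, 15eh1 against N2 showed a smaller shift than YPT41 against N2, and it was more even over the libraries. The median log2 fold change of the 91 genes was 0.43, with 85 above 0, against 0.01 and 51% of all genes. Within replicate numbers 1 to 4 the median difference was 0.55, 0.28, 0.31 and 0.71 in log2 CPM, and 76, 75, 73 and 86 genes were higher in 15eh1. Higher at all 4 numbers were 51 members, 56.0%, against 14.6% of all genes, and lower at all 4 were 0 members, against 9.81%. No member passed edgeR, with the block or without (0.0683% and 0% of all genes called), nor DESeq2 (0.131%). Unadjusted p fell under 0.05 for 3 members, all higher, against 1.56% of all genes. Without 1 library the median ran from 0.28 without N2 replicate 1 to 0.63 without 15eh1 replicate 1, and with the block it was 0.25 without N2 replicate 4. The larger shift in YPT41 depended on YPT41 replicates 3 and 4. Without them the YPT41 median against N2 was 0.06 with strain only and 0.27 with the block.

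The 5 largest differences here were in nlp-4, nlp-91, nlp-45, nlp-88 and nlp-12. The gene nlp-4, on I, had 0.915, 2.03, 2.84 and 2.09 CPM in N2, 8.46, 10.0, 3.25 and 8.49 in 15eh1, and 1.62, 1.66, 0.335 and 6.50 in YPT41. All 15eh1 libraries were above all of N2 (log2 1.92 ± 0.71 SE, unadjusted edgeR p = 0.0188, adjusted p = 1.00). The gene nlp-88, on IV, had 9.76, 8.76, 7.18 and 5.79 CPM in N2 and 14.7, 21.4, 13.8 and 19.9 in 15eh1, again without overlap (log2 1.15 ± 0.33 SE, unadjusted edgeR p = 0.00503, adjusted p = 1.00). Besides these, flp-34 and nlp-79 did not overlap, named here after their values were seen. The 4 genes compare with 0.963% of all genes that had every 15eh1 library above every N2 library, and no member had every library below, against 0.728%.

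For flp-34 the N2 libraries had 3.55 to 6.31 CPM and the 15eh1 libraries 6.55 to 8.56 (log2 0.54 ± 0.32 SE), and for nlp-79 1.40 to 2.34 and 2.74 to 3.64 CPM (log2 0.69 ± 0.43 SE). The gene nlp-91 had 0.813, 2.10, 1.19 and 1.37 CPM in N2 and 1.46, 3.17, 5.94 and 3.91 in 15eh1, higher at each number but overlapping (log2 1.40 ± 0.55 SE). At low levels of 0.490 to 2.34 CPM in N2 and 0.781 to 5.54 in 15eh1, nlp-45 had a log2 fold change of 1.22 ± 0.81. The cholecystokinin-like nlp-12 had 199, 135, 65.3 and 126 CPM in 15eh1, each above the N2 library of the same number (log2 0.90 ± 0.46 SE).

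In 15eh1 against N2, 6 members lay below 0, none called. The lowest, nlp-52, had a log2 fold change of −0.52 ± 1.21 SE at 0 to 0.955 CPM in both strains, under the mean of 1 CPM set for naming the largest differences. The others were flp-8, flp-17, nlp-67, nlp-69 and nlp-46, with log2 fold changes of −0.29, −0.21, −0.18, −0.11 and −0.03. The male mating gene flp-8 had 9.35, 47, 31.4 and 42.5 CPM in N2, 9.40, 33.6, 21.6 and 41.7 in 15eh1, and 19.7, 45.6, 54.5 and 103.9 in YPT41.

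Between the fusion strains, 15eh1 against YPT41, the median of the members was −0.47, with 15 of 91 above 0, against −0.02 and 48.6% of all genes. No member passed edgeR with strain only, where 0.182% of all genes did, and DESeq2 called 0 (1.44%). Unadjusted p was under 0.05 for 2 members, nlp-4 and nlp-88, both higher in 15eh1, against 5.76%. With the block flp-8 alone passed, lower in 15eh1 (log2 −1.07 ± 0.22 SE, edgeR adjusted p = 0.0362; 0.999 without), against 1.33% of all genes lower. Lower at all 4 replicate numbers were 15 members and higher 2, against 14.1% and 8.17% of all genes. The gene flp-8 was called in 1 of the 8 fits with the block that left out 1 library, that without YPT41 replicate 2. Within replicate numbers the median was 0.00, 0.23, −0.63 and −1.01, so the direction in numbers 3 and 4 was not that of number 2. Without YPT41 replicates 3 and 4 the median was 0.35 with strain only and 0.14 with the block. Without YPT41 replicate 4 alone it was 0.0021, with 46 of 92 genes above 0, and −0.06 with the block. It was −0.29 with strain only without 15eh1 replicate 1, and with the block −0.30 without 15eh1 replicate 3 and −0.27 without 15eh1 replicate 4. Both comparisons with N2 share the N2 libraries, so the size of the shifts in the 2 fusion strains is set side by side only.

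Genes that make and release peptides were set beside the members, from lists of known genes. In YPT41 against N2, 9 of 11 tested processing genes had a log2 fold change above 0 (median 0.55), and none passed with strain only or by DESeq2, with 2 at an unadjusted p under 0.05. With the block pghm-1 and pgal-1, enzymes that amidate the peptide end, rose by 1.07 ± 0.24 and 0.95 ± 0.22 SE on the log2 scale (edgeR adjusted p = 0.0314 and 0.0304). The convertase chaperone sbt-1 had 141, 263, 220 and 146 CPM in N2 and 152, 261, 452 and 745 in YPT41, with replicates 3 and 4 alone above N2 (log2 1.06 ± 0.44 SE, edgeR adjusted p = 0.503). The carboxypeptidase egl-21 had a log2 fold change of 0.83 ± 0.37 SE (edgeR adjusted p = 0.536). In 15eh1 the processing genes had a median of 0.12, and sbt-1 stood at −0.43 ± 0.43 SE.

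Vesicle and neuronal genes had medians closer to 0. The 10 dense core vesicle genes had 0.12 in YPT41 and −0.02 in 15eh1, with 0 called by edgeR with or without the block, by DESeq2, or at an unadjusted p under 0.05. Their highest value in YPT41 was that of ida-1, a membrane protein of these vesicles (log2 0.83 ± 0.47 SE, edgeR adjusted p = 0.693). The 13 pan-neuronal genes had 0.07 and 0.05, again with 0 called by all of these, and 7 transmitter genes had 0.11 and 0.21. Of the latter unc-25, which makes GABA, rose in YPT41 with the block (log2 0.96 ± 0.22 SE, edgeR adjusted p = 0.0332). Of 106 peptide receptor genes, 94 were tested, with medians of 0.26 in YPT41 and 0.22 in 15eh1, and 0 called by edgeR with strain only or by DESeq2 against N2. The counts at an unadjusted p under 0.05 were 1 in YPT41 (npr-28, p = 0.0408, named after its values were seen) and 0 in 15eh1. Of the receptors frpr-19 alone passed the adjusted threshold with the block, higher in YPT41 (log2 1.10 ± 0.25 SE, edgeR adjusted p = 0.032).

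Neuropeptide genes with other symbols gave medians like those of the members. The 7 tested, pdf-1, pdf-2, ntc-1, snet-1, capa-1, lury-1 and trh-1, had a median of 0.96 in YPT41 and 0.48 in 15eh1, with 0 called by edgeR with strain only or by DESeq2 and 1 at an unadjusted p under 0.05 in each. With the block ntc-1, the vasopressin-like nematocin, and pdf-2, a pigment-dispersing factor, rose in YPT41 by 1.45 ± 0.27 and 0.93 ± 0.21 SE (edgeR adjusted p = 0.0146 and 0.0281). Relative to the pan-neuronal genes, the mean log2 CPM of the members was −1.71 to −1.89 in the N2 libraries and −1.27 to −1.63 in 15eh1. In YPT41 it was −1.54, −1.56, −1.25 and −0.24 in replicates 1 to 4, so replicate 4 stood apart and replicates 1 and 2 were within the 15eh1 range. Molting genes lay below 0: the 7 listed had medians of −0.65 in YPT41 and −0.52 in 15eh1, and summed to 2062 to 3668 CPM in N2, 1081 to 2209 in 15eh1 and 1155 to 2271 in YPT41. Of these mlt-10 fell in YPT41 with the block (log2 −1.43 ± 0.26 SE, edgeR adjusted p = 0.0122; 0.101 without). Their part in the values of the members, and that of the adult transcripts in replicate 1, was not tested.

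**Figure D4:**
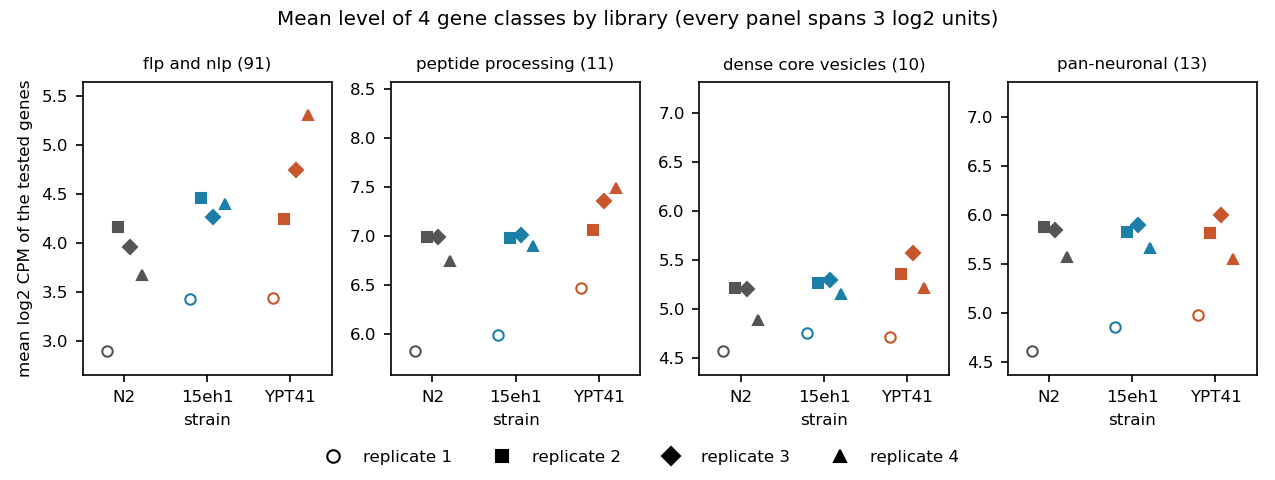
Mean log2 CPM of the tested genes of 4 classes in each library (points, by strain; symbols give the replicate, open for replicate 1), with every panel spanning the same range. The flp and nlp genes reach 4.75 and 5.30 in YPT41 replicates 3 and 4 against 2.90 to 4.16 in N2, the processing genes are highest there too, and the pan-neuronal genes stay at 5.55 to 6.00 in replicates 2 to 4 of all strains.

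The members were many on X and few on V. X held 35 of the 98, or 35.7%, against 13.7% of all genes placed in the annotation, and V held 11, or 11.2% against 25.2%. In the comparisons with N2 the medians on X and on the autosomes together were close. In 15eh1 against N2 the 31 tested members on X had a median of 0.47 and the 60 on autosomes 0.42. In YPT41 against N2 they were 0.98 and 0.83. All genes on X had medians of 0.04 and 0.16 in these comparisons. Members on V, the chromosome joined to X in 15eh1, had 0.42 in that strain and 1.03 in YPT41. Members on II, joined to X in YPT41, had 0.78 in YPT41 and 0.42 in 15eh1. The lowest median in YPT41 against N2 was 0.66, on I. Between the fusion strains, 15eh1 against YPT41, the medians of the members ran from −0.62 on V to 0.02 on I.

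Of the fused autosomes, the right end of V and the left end of II were examined, and few members lie near them. Among the 100 tested genes nearest the right end of V was 1 member, nlp-69, with 9.35, 15.2, 12.5 and 11.2 CPM in N2 and 10.5, 12.3, 8.76 and 12.9 in 15eh1 (log2 −0.11 ± 0.43 SE). It had 5.68, 14.6, 27.4 and 30.0 CPM in YPT41, where V is not joined. The 100 genes nearest the left end of II included no member. The closest, nlp-99, had 207, 91.5, 75.0 and 70.0 CPM in N2 and 75.4, 81.2, 121 and 133 in YPT41 (log2 −0.11 ± 0.40 SE with strain only, 0.07 ± 0.34 with the block). The labels do not say which ends are joined, and the other ends of V and II were not examined in this way. Counted from the right end of V, nlp-70 ranked 2609 of 2636 tested genes. Counted from the left end of II, nlp-41, called with the block in YPT41, ranked 2057 of 2130.

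**Figure D5:**
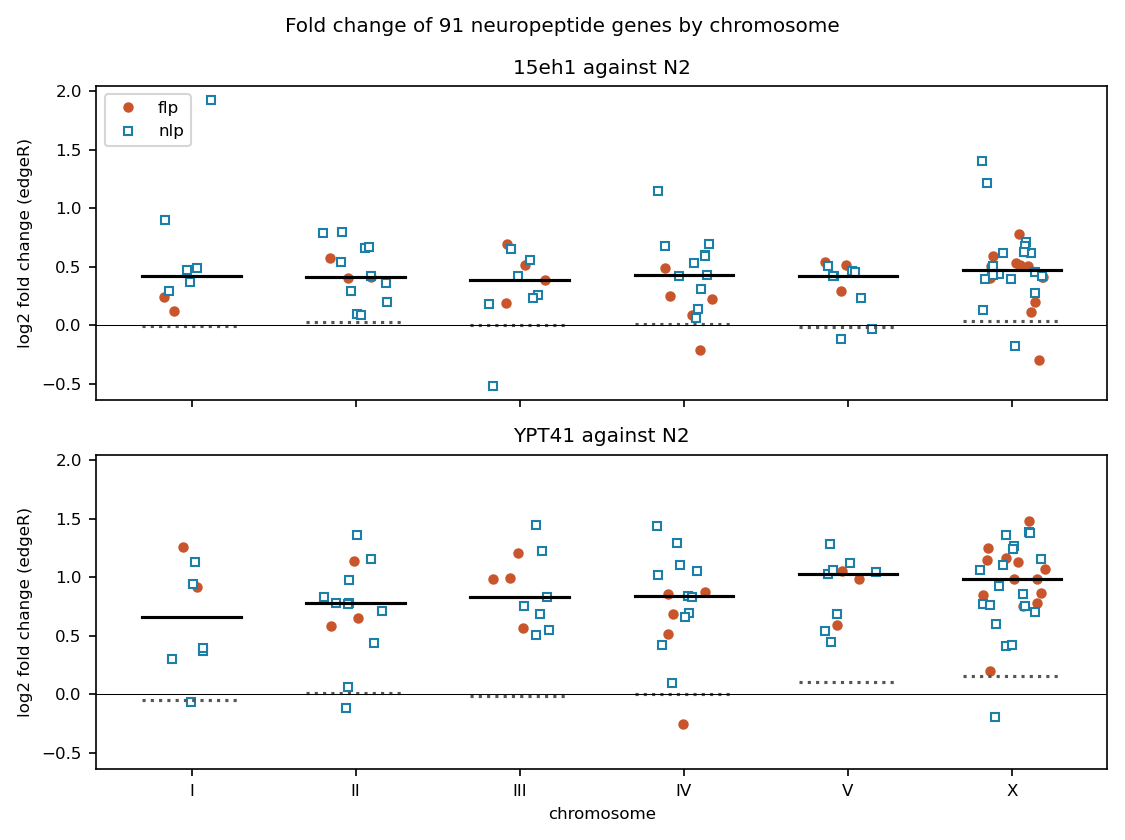
Log2 fold change (edgeR, strain only) of the 91 tested genes by chromosome, flp filled and nlp open, for 15eh1 and YPT41 against N2; solid lines are medians of the members and dotted lines medians of all tested genes on that chromosome. The medians of the members lie between 0.39 and 0.47 on every chromosome in 15eh1 and between 0.66 and 1.03 in YPT41.

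Some members are neighbours on the chromosome and did not share 1 pattern. On X, flp-28, flp-3 and flp-2 follow each other without another protein-coding gene between them. Of these flp-3 had 6.81, 20.5, 19 and 12.5 CPM in N2 and 14.4, 23.1, 45.7 and 47.1 in YPT41, lowest in replicate 1. By contrast, flp-28 was higher in replicate 1 than in the mean of replicates 2 to 4 in every strain. In YPT41 that difference was 0.17 on the log2 scale, and flp-28 was highest in replicate 4 (log2 CPM 6.60 against 6.01 in replicate 1). Likewise nlp-45, nlp-22, nlp-23 and nlp-2 stand in a row on X, of which nlp-22 and nlp-23 were too low to test. The spans of 26 members overlap another gene, such as flp-1 with daf-10 and flp-13 with itr-1. Among the 26, flp-28, flp-3 and flp-2 all overlap W07E11.1, and nlp-45, nlp-22, nlp-23 and nlp-2 all overlap T01B6.1. Reads of such pairs may not be told apart. The 67 tested members without such an overlap had medians of 0.85 in YPT41 and 0.45 in 15eh1 and held 15 of the 18 genes called with the block.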

How the data were processed

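RNA-seq of 12 libraries (N2, 15eh1 and YPT41, 4 each) was analysed; the other 153 of 165 samples of the series are not analysed here. The authors deposited raw counts per gene; their unit was read from the whole values and the summary lines, which stayed out of library sizes. Per the submitters' processing notes, the tools were TopHat2 2.1.1, HTSeq, SAMtools 1.6, Bowtie 1.2.0, CASAVA 1.8, bedtools and MACS 1.4.3 (roles not stated). Build, annotation release and strand setting were not given in the sources used here, so overlapping and antisense genes cannot be separated. Of 20389 identifiers 19879 matched the RefSeq table for WBcel235, from which symbols, chromosomes and gene order were taken.

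Genes were filtered by strain (filterByExpr), scaled by TMM and tested with edgeR 4.0.16 in R 4.3.3 by quasi-likelihood in 1 fit of all 12 libraries and strain alone in the model. Two-sided p-values were adjusted by Benjamini-Hochberg over 13186 genes, threshold 0.05. CPM are TMM-scaled; log2 CPM use a prior count of 2. SE is the log2 fold change divided by the root of its F value. On simulated counts for YPT41 against N2, 100 genes were changed by 2 on the log2 scale and 100 by 3. Strain only recovered 26% and 59% of them with 0 false calls, and the block 83% and 95% with 8. The simulated counts had the same replicate pattern in every strain and the spread of the fit with the block. The block was thus favoured by design, and the simulation does not show how well it serves these libraries. Smaller changes, such as the median of the members, were not simulated. DESeq2 1.42.0 was an alternative. The deviations of libraries with the same replicate number from their strain means correlated between strains at 0.319 to 0.942, above the limit of 0.1 in all 12 pairs, so the numbers were taken to pair the libraries; among replicates 2 to 4 they ran from −0.12 to 0.44, with 4 of 9 above it. No library repeated another (lowest chi-square per gene 22.3).

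The members and all lists were chosen with earlier results of these data known. Members are named that passed a test, with or without the block, had the 5 largest rises or falls against N2 (mean of at least 1 CPM in the higher strain), have a listed role, or lie among the 100 tested genes at the right end of V or the left end of II; others were added after their values were seen. Levels were not compared between genes, since no transcript length was used. Precision is limited by depth and by 4 libraries per strain. Floors cover counting error only.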

Additional observations from a re-analysis of the deposited data

Results flagged for a closer look

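Among the 138 groups of 4 libraries examined (46 named and tested members, 3 strains), 13 held a library far from the other 3. The limit used gives about 1 in 20 by chance for independent, normally distributed groups. These groups share libraries and the members varied together, so the 13 cannot be set against that rate. In 10 of the 13 the far library was replicate 1. Replicate 1 was far below in 15eh1 for flp-3 (7.73 CPM against 24.2 to 26.3), flp-17 (8.77 against 37.6 to 42.1), flp-26 (3.86 against 23.1 to 26.9) and nlp-10 (7.00 against 26.4 to 28.2), and in N2 for flp-11 (9.25 against 33.8 to 34.8). It was far above for flp-10 in N2 (119 CPM against 12.6 to 19.1) and 15eh1 (118 against 15.0 to 28.4), for nlp-40 in N2 (307 against 159 to 177) and 15eh1 (373 against 226 to 233), and for nlp-99 in N2 (207 against 70.0 to 91.5). In the other 3 cases nlp-67 was high in YPT41 replicate 4 (74.4 CPM against 21.6 to 29.8), nlp-19 was high in YPT41 replicate 2 (3.87 against 1.63 to 1.89), and nlp-79 was low in N2 replicate 2 (1.40 against 2.21 to 2.34).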

How the results depend on the processing

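No neuropeptide gene passed edgeR with strain only, a result that held under RLE scaling, no filter, the 2 strains alone, DESeq2 and each library left out in turn. Replicates 2 to 4 alone gave 1 in YPT41 against N2. In these replicates with the replicate block no member passed in any comparison. The replicate block over all 4 numbers took these numbers to pair the libraries. With it 18 passed in YPT41 against N2 and 1 in 15eh1 against YPT41, and no member in 15eh1 against N2. Fits with the block that leave out libraries were added after seeing the data: the 18 became 0 to 35 without 1 library and 0 without YPT41 replicates 3 and 4, and the 1 became 0 to 9 and 0. Over all genes the block called 9 (15eh1 against N2), 686 (YPT41 against N2) and 241 (15eh1 against YPT41), which became 2 to 6, 91 to 945 and 57 to 342 without 1 library and 315 and 140 without YPT41 replicates 3 and 4. In the same order, all genes called were 0, 29 and 24 with strain only, 2, 134 and 74 in replicates 2 to 4, 1, 160 and 69 there with the replicate block, and 18, 382 and 202 by DESeq2. They were 16 without a filter in YPT41 against N2, 6 and 8 with only the 2 strains in YPT41 against N2 and 15eh1 against YPT41, and 2 and 1 without YPT41 replicates 3 and 4. Leaving out 1 library gave 0 to 1, 4 to 27 and 3 to 18. Without YPT41 replicates 3 and 4 the median of the members was 0.065 in YPT41 against N2 and 0.35 in 15eh1 against YPT41 with strain only, and 0.27 and 0.14 with the replicate block. In YPT41 against N2 RLE scaling shifted all tested genes by a median of −0.10. Among log2 fold changes in YPT41 against N2, 15 of 40 changed sign without YPT41 replicates 3 and 4: flp-1 to −0.24, flp-7 to −0.20, flp-12 to −0.095, flp-13 to −0.15, flp-14 to −0.036, flp-17 to −0.18, flp-21 to −0.013, flp-32 to −0.34, nlp-8 to −0.052, nlp-12 to −0.021, nlp-19 to 0.090, nlp-40 to −0.37, nlp-52 to −1.41, nlp-62 to 0.57 and nlp-69 to −0.30. With the replicate block flp-10 became 0.33, nlp-62 0.12 and nlp-99 0.072. In replicates 2 to 4 flp-10 was 0.63 and nlp-99 0.39, with the same values when the replicate block was added. Leaving out 1 library, values ran from −0.69 to 1.01 for flp-10, −0.71 to 0.021 for nlp-19, −0.13 to 0.45 for nlp-40, −0.43 to 2.00 for nlp-52, −0.88 to 0.22 for nlp-62 and −0.36 to 0.27 for nlp-99. In 15eh1 against N2 they ran from −0.53 to 0.10 for flp-17, −0.37 to 0.33 for nlp-46, −0.32 to 0.10 for nlp-67 and −0.24 to 0.028 for nlp-69. The causes were not tested. The alternative on level per coding length was not run, since no lengths were used.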

Other observations

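The nlp genes of the antimicrobial type, nlp-24 to nlp-34, had a median log2 fold change of 1.78 in YPT41 against N2 and 0.26 in 15eh1 against N2. None passed edgeR with strain only, DESeq2 called 4 in YPT41 against N2, and 8 had an unadjusted p under 0.05 in YPT41 against N2. With the replicate block 6 were called there, nlp-28, nlp-29, nlp-30, nlp-31, nlp-33 and nlp-34, against 4.1% of all genes higher. The values of nlp-34 and nlp-30 were 4.14 ± 0.36 and 2.04 ± 0.21 SE on the log2 scale (edgeR adjusted p = 0.000352 and 0.000963). The 11 genes summed to 2818 CPM in YPT41 replicate 4 and to 181 to 1047 CPM in the other 11 libraries.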
